A study of Rattus norvegicus with 20 samples.

Results

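The amino acid transporters described here were 10 genes taken by symbol from a table of 17337 gene symbols, and 9 of the 10 had enough counts to be tested among 8320 genes. Their messenger RNA was measured in rat lung epithelial cells that were left still or stretched, with and without an inhibitor of the stress kinase PERK. The cells were primary alveolar type II cells of Sprague-Dawley rats, which had spread over 4 days on silastic membranes coated with fibronectin into monolayers resembling type I cells. In the 4 groups, NS was unstretched and kept in 0.01% DMSO for 24 h. S was kept in 0.01% DMSO for 18 h and afterwards stretched for 6 h, biaxially and cyclically, by 25% of surface area at 15 cycles per min. NS_PI was unstretched with 1 µM GSK2606414, the PERK inhibitor, and S_PI was stretched for 6 h after 18 h of 1 µM GSK2606414. The inhibitor time in NS_PI is 18 h of pretreatment in the series text and 24 h in the treatment protocol, and the DMSO content of the inhibitor groups is not recorded. Each group had 5 libraries, 1 per animal, and each library pooled RNA from 4 monolayers of that animal. The animal number is the same across groups, so every stretched library has an unstretched library of its own animal. The age and sex of the rats and any selection of cells beyond the culture are not given in the labels.

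Amino acid transporters of the plasma membrane fall into families that differ in substrate and in driving force. Slc3a2 encodes 4F2hc (CD98hc), the heavy chain that carries several light chains to the cell surface. Among those light chains, Slc7a5 (LAT1) exchanges large neutral amino acids, Slc7a6 (y+LAT2) exchanges cationic for neutral amino acids, and Slc7a11 (xCT) takes up cystine in exchange for glutamate, which supplies cysteine for glutathione. Slc7a1 (CAT-1) carries arginine and lysine without a heavy chain. Slc38a1 (SNAT1) and Slc38a2 (SNAT2) bring in small neutral amino acids with sodium, Slc1a4 (ASCT1) and Slc1a5 (ASCT2) exchange neutral amino acids such as serine and glutamine, and Slc6a9 (GlyT1) takes up glycine. Several of these genes are known targets of ATF4, the transcription factor whose translation rises when PERK or another eIF2α kinase is active. Slc7a11 is also a known target of NRF2, the regulator of antioxidant genes. In alveolar epithelium such carriers supply amino acids for protein and glutathione synthesis.

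Stretch raised a subset of these genes, and Slc38a2 had the largest change with and without the inhibitor (3.18-fold without it and 3.72-fold with it). Without inhibitor, 3 of the 9 tested genes rose (Slc38a2, Slc7a1 and Slc3a2), beside 12.5% of all tested genes. With inhibitor, 7 of 9 rose, beside 15.2% (4 of 9 with library size as the only scaling or without animal 3), and Slc7a11 and Slc7a1 were among the genes with the larger changes. No member passed the test of the difference between the stretch effects with and without inhibitor. In unstretched cells the inhibitor groups had lower means of Slc7a1, Slc7a11 and Slc7a5, but none of these differences passed the edgeR test over all genes in the fit to all libraries. Slc7a1 passed the threshold in 4 of 12 alternatives, DESeq2 among them, and Slc7a11 in 1 of 12.

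The promoters are shown because several members moved together under stretch. The sequences are those of RefSeq on the rat build GRCr8 and run from 250 bases before to 50 bases after the annotated start. Of the 10 members, 9 matched a promoter by symbol, Slc3a2 with 2 entries, which gave 10 entries of 300 bases. The motif TGATGNAA (TTNCATCA on the other strand), the core of the C/EBP-ATF composite element that ATF4 is known to bind, was present in 3 of the 10 entries, in 3.98% of all 33469 promoters and in 1.7% of the 6723 promoters of tested genes. The motif TGACNNNGC (GCNNNGTCA on the other strand), the core of the antioxidant response element known for NRF2, was present in 3 of the 10 entries, in 12.1% of all promoters and in 15.2% of those of tested genes. Neither motif overlapped the other in the members. These matches describe letters in the window and not bound sites. The promoter of Slc7a1 is printed because the gene changed with stretch and ranked first in the inhibitor comparison, and it held both motifs. It lies at chr12:11664238-11664537 on the plus strand, and the capitals mark GCGCTGTCA, at positions -107 to -99 from the start, and TGATGAAA, at -30 to -23.
Slc7a1 promoter: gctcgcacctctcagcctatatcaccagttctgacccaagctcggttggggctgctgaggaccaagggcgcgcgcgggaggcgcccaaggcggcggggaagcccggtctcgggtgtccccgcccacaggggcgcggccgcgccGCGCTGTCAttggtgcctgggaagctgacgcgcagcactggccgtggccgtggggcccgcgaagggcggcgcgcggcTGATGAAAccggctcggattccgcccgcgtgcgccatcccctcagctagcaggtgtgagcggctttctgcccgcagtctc
The promoter of Slc38a2, the member with the largest stretch effect, lies at chr7:129742570-129742869 on the minus strand. It held no composite core in this window, and the capitals mark TGACGCGGC, at positions -50 to -42.
Slc38a2 promoter: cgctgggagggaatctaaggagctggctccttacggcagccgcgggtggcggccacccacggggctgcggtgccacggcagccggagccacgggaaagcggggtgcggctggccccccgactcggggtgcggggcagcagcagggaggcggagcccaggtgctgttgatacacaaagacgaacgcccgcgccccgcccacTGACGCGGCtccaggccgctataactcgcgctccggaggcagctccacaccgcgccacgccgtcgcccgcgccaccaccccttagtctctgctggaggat
The other composite cores were in the promoters of Slc38a1 and Slc1a4, the pair of members with the fewest counts. Slc38a1 was not called under stretch, and Slc1a4 was not among the tested genes. Of the members called under stretch, only Slc7a1 thus held this core in its window. In Slc38a1 (chr7:129681516-129681563, minus strand) the core TGATGCAA lay at positions -142 to -135, and in Slc1a4 (chr14:98761770-98761812, minus strand) the core TTGCATCA, on the other strand, lay at -235 to -228. The stretches around them are shown with the core in capitals.
Slc38a1 context: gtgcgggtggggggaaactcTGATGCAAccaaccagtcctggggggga
Slc1a4 context: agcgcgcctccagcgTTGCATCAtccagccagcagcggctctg
In 1 of the 2 Slc3a2 entries the antioxidant core GCGGAGTCA was on the other strand, at positions -45 to -37 (chr1:215039687-215039735, minus strand, capitals).
Slc3a2 context: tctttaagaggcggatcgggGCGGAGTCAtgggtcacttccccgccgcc
No match to either motif was present in the windows of Slc7a5, Slc7a6, Slc7a11 and Slc6a9.

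Libraries held 999209 to 3131541 counts assigned to genes. Levels are given as CPM, counts brought to a common library total and scaled by TMM (a factor per library from the bulk of its genes), and 3 counts, used as the floor of detection, equalled 1.07 to 3.04 CPM. This floor covers counting error only, while the SE and 95% CI of fitted changes include the spread between libraries. The 9 tested members had 7 to 5068 counts in each of the 20 libraries. The type I markers Pdpn and Ager were present at means of 1819 and 498 CPM. Aqp5 (3.02 CPM) had a mean within the range of the floor, and Cyp2b1 (0.730 CPM) and Rtkn2 (0.489 CPM) had means below it. Of the type II markers, Lyz2, which macrophages also express, was at 4899 CPM. Napsa was at 190, Lamp3 at 123, Cebpa at 96.6, Etv5 at 46.9 and Sftpd at 39.9 CPM. Lpcat1 was at 19.8, Sftpa1 at 12.1, Sftpc at 11.9, Sftpb at 7.30 and Slc34a2 at 1.07 CPM. By these means Lyz2 made up most of the summed type II level. Of 10 tested type II markers (12 listed), 1 rose in each stretch comparison and 0 fell, with summed levels of 1761 to 8424 CPM (NS), 1384 to 11320.0 CPM (S), 1610.0 to 8425 CPM (NS_PI) and 1686 to 10721 CPM (S_PI). Markers of other cells were also present, at unlike levels. Of the fibroblast and smooth muscle markers, Col1a1 was at 5467, Acta2 at 1057, Tagln at 692, Col3a1 at 551 and Des at 65.5 CPM. In the same list Dcn was at 13.4, Pdgfrb at 7.51, Pdgfra at 3.88, Lum at 2.99 and Col1a2 at 1.63 CPM. Of the airway markers, Scgb1a1 was at 1460, Foxj1 at 7.51, Scgb3a2 at 0.898 and Krt5 at 0.0231 CPM. Of 5 airway markers 2 were tested and neither was called under stretch, with summed levels from 206 to 3398 CPM over all libraries. None of 5 endothelial markers had enough counts to be tested, their summed level was at most 4.05 CPM, and Cdh5 had no count in any library. Of 11 tested macrophage and leukocyte markers (15 listed), 4 rose and 0 fell with stretch without inhibitor, and 5 rose and 0 fell with it. Their summed level was 834 to 2739 CPM (NS), 1382 to 3389 CPM (S), 920.3 to 2420 CPM (NS_PI) and 1408 to 3021 CPM (S_PI). Of 9 tested type I markers (12 listed), 1 rose and 4 fell without inhibitor, and 2 rose and 6 fell with it, with summed levels of 1731 to 6133 CPM (NS), 1286 to 5682 CPM (S), 1838 to 6547 CPM (NS_PI) and 1287 to 5615 CPM (S_PI). Of 8 tested fibroblast and smooth muscle markers (10 listed), 1 rose and 1 fell without inhibitor, and 3 rose and 2 fell with it, with summed levels of 4025 to 8621 CPM (NS), 4279 to 12986 CPM (S), 3767 to 11651 CPM (NS_PI) and 4350 to 14866 CPM (S_PI). Beside these counts, 24.9% of all tested genes were called in either direction under stretch without inhibitor and 30.5% with it. Called higher were 12.5% without inhibitor and 15.2% with it. The part of these marked cells in the transporter results was not tested. In bulk RNA fewer cells of a type and less RNA per cell cannot be told apart.

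Without inhibitor, stretch raised the arginine and lysine carrier Slc7a1, the system A carrier Slc38a2 and the heavy chain Slc3a2. The light chains Slc7a5, Slc7a6 and Slc7a11, the exchanger Slc1a5, Slc38a1 and Slc6a9 did not pass the test. The 3 of 9 members called, all higher, stand beside 24.9% of the 8320 tested genes called in either direction and 12.5% called higher at a Benjamini-Hochberg adjusted p below 0.05 (edgeR quasi-likelihood test). Of all tested genes, 1044 rose and 1031 fell (722 and 1425 when libraries were scaled by size alone, and 854 and 1233 by upper quartile). The median log2 change of the 9 was 0.41, and that of all tested genes was -0.01 (-0.12 with size alone, to which member changes under that scaling are relative). In 2 of the 9 (Slc38a2 and Slc7a1) the S and NS libraries did not overlap with S higher, beside 3.45% of all tested genes. At an unadjusted p below 0.05, 4 of the 9 members were counted beside 3120 of the 8320 tested genes. DESeq2 called 3 members and 2115 genes.

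Slc38a2 in unstretched vehicle cells stood at 414, 559.9, 454, 341 and 375 CPM in animals 1 to 5. After stretch it stood at 1367, 1803, 1716, 1098 and 939.8 CPM. All 5 stretched libraries were higher than every unstretched one. The mean moved from 429 ± 84.5 to 1385 ± 376 CPM (SD, n = 5), a log2 change of 1.67 ± 0.14 (SE, edgeR adjusted p = 1.04e-07), which had the third smallest p of all tested genes. Slc38a2 made up 36.7 ± 7.04% of the summed CPM of the 10 members in NS and 54.3 ± 7.88% in S (SD, n = 5). The kit gives 1 fragment per transcript, so this share is over transcripts and was not corrected for length.

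Slc7a1 in NS stood at 124, 203, 227, 136 and 166 CPM in animals 1 to 5. In S it stood at 309, 326, 304, 298 and 363 CPM. The stretched libraries lay within a narrow band above all unstretched ones, with a coefficient of variation of 8.19% in S and 25.4% in NS. The log2 change was 0.91 ± 0.17 (SE, 1.87-fold, edgeR adjusted p = 0.000650), higher in 5 of 5 animals.

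Slc3a2 in NS stood at 128, 247, 346, 313 and 308 CPM. In S it stood at 185, 711, 571, 646 and 309 CPM. The groups overlapped, since animal 1 was low in both and animal 5 had nearly the same level in both. The log2 change was 0.79 ± 0.21 (1.72-fold, edgeR adjusted p = 0.0101), and within animals it ran from 0.01 to 1.53. The call was lost without the animal block (adjusted p = 0.104) and without animal 4 (adjusted p = 0.0547).

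Slc7a11, Slc7a5 and Slc7a6, the light chains of Slc3a2 among the members, did not reach the threshold in vehicle. Slc7a11 in NS stood at 26.2, 110.0, 138, 88.6 and 91.8 CPM and in S at 54.6, 125, 90.5, 148 and 139.7 CPM. Animal 1 was the lowest in both groups, and animal 3 was the only one whose level was lower after stretch. The log2 change was 0.33 ± 0.23 (95% CI -0.14 to 0.80, edgeR adjusted p = 0.297). Slc7a5 in NS stood at 9.64, 31.4, 51.9, 29.9 and 20.5 CPM and in S at 27.0, 42.3, 28.3, 58.7 and 28.8 CPM, with the highest NS library in animal 3 and the highest S library in animal 4. Its log2 change was 0.41 ± 0.33 (95% CI -0.28 to 1.11, edgeR adjusted p = 0.386). Slc7a6 ranged from 33.5 to 44.5 CPM in NS and from 43.7 to 72.1 CPM in S, the highest being animal 1 and the ranges just overlapping. Its log2 change was 0.43 ± 0.18 (edgeR adjusted p = 0.0791).

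The remaining members had small differences in vehicle. Slc38a1, the relative of Slc38a2, was low, with 7.07 ± 2.45 CPM in NS and 8.72 ± 3.16 CPM in S (SD, n = 5) and a log2 change of 0.27 ± 0.27. Slc1a5 had 115 ± 21.9 CPM in NS and 98.5 ± 12.2 CPM in S and a log2 change of -0.23 ± 0.19, lower in 4 of 5 animals. Slc6a9 had 37.6 ± 14.6 CPM in NS and 37.3 ± 5.40 CPM in S, and its log2 change of 0.04 ± 0.21 was negative under upper-quartile scaling (-0.02) and under library size alone (-0.07). None of the 3 passed the test (edgeR adjusted p = 0.491, 0.410 and 0.919).

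In the authors' deposited table, whose header names neither groups nor direction and whose signs ran opposite to S over NS, Slc38a2 (ENSRNOG00000006305) had a log2 value of -1.62 (adjusted p = 2.99e-20). Slc7a1 (ENSRNOG00000000924) had -0.90 (adjusted p = 8.21e-05) and Slc3a2 (ENSRNOG00000018487) had -0.74 (adjusted p = 0.00618) in the authors' deposited table. In the authors' deposited table the adjusted p of the other tested members ranged from 0.262 to 0.899.

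**Figure D1:**
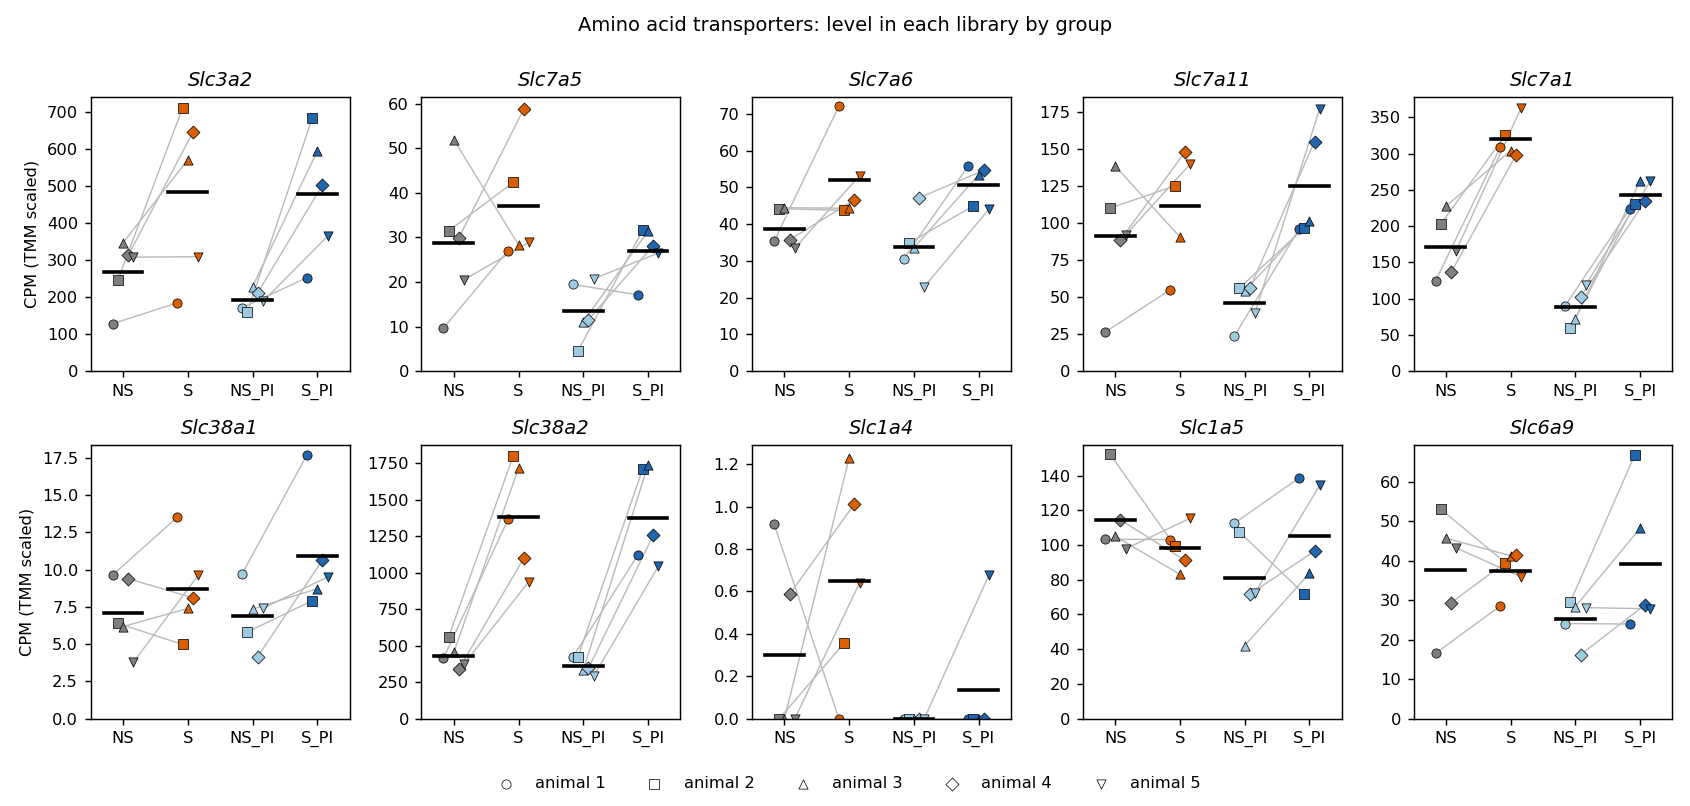
Level of each transporter in CPM (vertical axis, linear, from 0, 1 panel per gene with its own scale) in the 4 groups, with 1 marker per library, the marker shape giving the animal, grey lines joining the unstretched and stretched library of an animal, and black bars the group means. Slc38a2 stands at 341 to 559.9 CPM in NS and at 939.8 to 1803 CPM in S, Slc7a1 has 4 nearly separate levels, and Slc1a4 never exceeds 2 counts.

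With inhibitor, stretch raised 7 of the 9 tested members. They were Slc38a2, Slc7a11, Slc7a1, Slc3a2, Slc7a5, Slc7a6 and Slc6a9. The count was 4 with library size as the only scaling and 4 without animal 3. Of the light chains of Slc3a2, Slc7a11 held its call in every alternative, while Slc7a5 lost it in 7 of 12 and Slc7a6 in 3 of 12. This stands beside 30.5% of all tested genes called in either direction and 15.2% called higher (edgeR, adjusted p below 0.05). Of all tested genes, 1263 rose and 1271 fell (957 and 1677 with library size alone, 1030 and 1612 with the upper quartile). The median log2 change of the 9 was 0.99, and that of all tested genes was -0.02. In 4 of the 9 (Slc38a2, Slc7a1, Slc7a11 and Slc3a2) the S_PI and NS_PI libraries did not overlap with S_PI higher, beside 7.18% of all tested genes. At an unadjusted p below 0.05, 8 of the 9 members were counted beside 3471 of all tested genes. DESeq2 called 7 members and 2521 genes. The stretch effects with and without inhibitor share no libraries, only the animals.

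Slc38a2 in NS_PI stood at 423, 426, 332, 345 and 291 CPM in animals 1 to 5. In S_PI it stood at 1118, 1713, 1737, 1256 and 1044 CPM. The groups were far apart, and animals 2 and 3 were highest in S_PI as they were in S. The log2 change was 1.90 ± 0.14 (SE, edgeR adjusted p = 1.64e-08), the second smallest p of all tested genes.

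Slc7a11 in NS_PI stood at 23.6, 56.0, 54.1, 56.0 and 39.2 CPM. In S_PI it stood at 95.8, 96.6, 101, 155 and 177 CPM. Every S_PI library was above every NS_PI library, and animals 4 and 5 were highest after stretch. The log2 change was 1.49 ± 0.23 (2.81-fold, edgeR adjusted p = 0.000101), higher in 5 of 5 animals by 0.79 to 2.18.

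Slc7a1 in NS_PI stood at 89.8, 59.8, 71.9, 102 and 119 CPM. In S_PI it stood at 224, 230.3, 263, 235 and 262 CPM. As without the inhibitor, the stretched libraries were tightly grouped (coefficient of variation 7.57%) and did not overlap with the unstretched ones. The log2 change was 1.46 ± 0.17 (2.75-fold, edgeR adjusted p = 4.38e-06).

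Slc3a2 in NS_PI stood at 171, 159, 228, 212 and 189 CPM. In S_PI it stood at 253, 682, 594, 503 and 364 CPM. The lowest S_PI library, animal 1, was just above the highest NS_PI library, animal 3. The log2 change was 1.22 ± 0.21 (2.32-fold, edgeR adjusted p = 0.000268).

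Slc7a5, Slc7a6 and Slc6a9 passed the threshold with inhibitor, and each lost the call in some alternatives. Slc7a5 in NS_PI stood at 19.4, 4.56, 11.0, 11.6 and 20.7 CPM and in S_PI at 17.1, 31.6, 31.4, 28.1 and 26.5 CPM. The groups overlapped, since animal 1 had a lower level after stretch and animal 5 a small difference. Its log2 change was 0.99 ± 0.37 (edgeR adjusted p = 0.0481, higher in 4 of 5 animals). Slc6a9 in NS_PI stood at 24.1, 29.5, 28.3, 16.2 and 28.1 CPM and in S_PI at 24.0, 66.9, 48.2, 28.9 and 27.8 CPM. Animals 2 and 3 were high in S_PI, and animals 1 and 5 were level in both groups. Its log2 change was 0.58 ± 0.21 (edgeR adjusted p = 0.0436, higher in 3 of 5 animals). Slc7a6 ranged from 22.9 to 47.2 CPM in NS_PI and from 44.1 to 55.9 CPM in S_PI, and its log2 change was 0.58 ± 0.18 (edgeR adjusted p = 0.0179, 5 of 5 animals).

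The adjusted p of Slc7a5 was 0.202, 0.128, 0.146 and 0.0606 without animals 2, 3, 4 and 5, that of Slc6a9 was 0.231, 0.150 and 0.121 without animals 2, 3 and 4, and that of Slc7a6 was 0.0611 and 0.0754 without animals 3 and 5. With library size alone it was 0.0665, 0.0908 and 0.0535 for Slc7a5, Slc6a9 and Slc7a6, and for Slc7a5 and Slc6a9 it was 0.0629 and 0.0758 with the upper quartile and 0.0884 and 0.165 without the animal block. Slc7a6os, a gene that RefSeq places within 2 kb of Slc7a6 without overlap, rose by 0.96 ± 0.12 without and 0.91 ± 0.12 with inhibitor on the log2 scale (edgeR adjusted p = 1.81e-05 and 1.59e-05), and the strand setting of the counting is not given in the sources used here. Slc6a9 overlaps Ccdc24, which had 1 count in all libraries together. RefSeq also places LOC100912041, a long non-coding RNA gene among the counted symbols, within 2 kb of Slc3a2 without overlap. Its part in the Slc3a2 counts was not tested.

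Slc38a1 and Slc1a5 did not pass the test with inhibitor. Slc38a1 had 6.89 ± 2.07 CPM in NS_PI and 10.9 ± 3.93 CPM in S_PI, with a log2 change of 0.65 ± 0.26 (edgeR adjusted p = 0.0630, higher in 5 of 5 animals). Slc1a5 had 81.2 ± 29.0 CPM in NS_PI and 105 ± 30.1 CPM in S_PI, with a log2 change of 0.39 ± 0.20 (edgeR adjusted p = 0.132), and animal 2 was the only one lower after stretch. Without animal 2, Slc1a5 passed the threshold (log2 change 0.62, adjusted p = 0.0217).

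**Figure D2:**
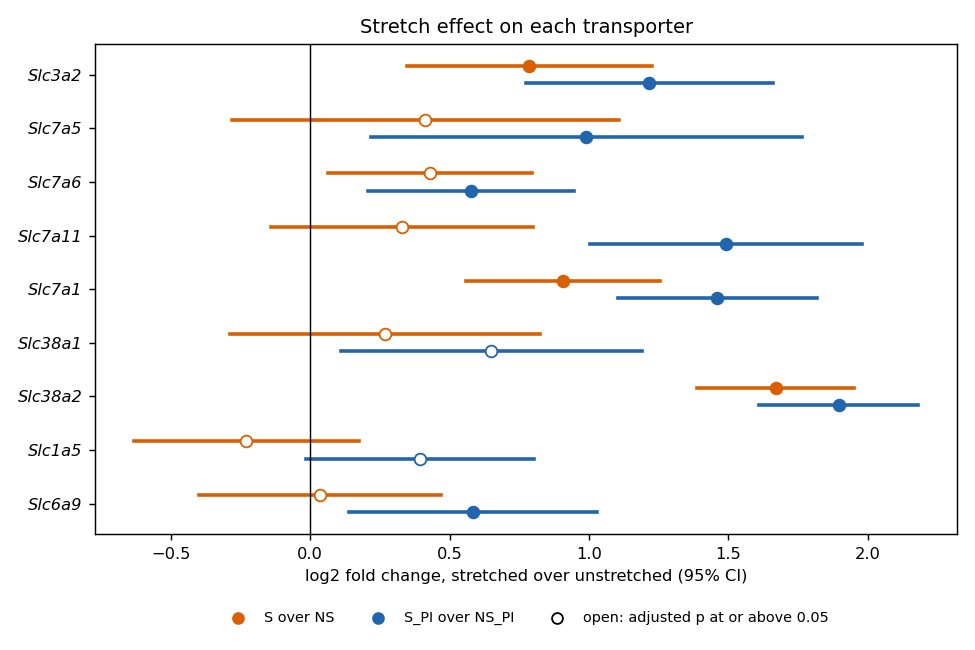
Fitted log2 fold change of stretched over unstretched cells (horizontal axis) with its 95% confidence interval for each tested transporter, without inhibitor (orange, S over NS) and with it (blue, S_PI over NS_PI), filled points having an adjusted p below 0.05. With inhibitor 7 points are filled and without it 3, and Slc38a2 lies farthest from 0 in both, at 1.67 and 1.90. The Slc6a9 point in vehicle (0.04) is below 0 under upper-quartile scaling and under library size alone.

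Relative to vehicle, the inhibitor in unstretched cells gave lower estimates for all 9 tested members, and none of these passed the test. This stands beside 0% of the 8320 tested genes called by edgeR. At an unadjusted p below 0.05, 5 of the 9 members were counted beside 455 of all tested genes, and DESeq2 called 1 member (Slc7a1) of 5 genes. The median log2 difference of the 9 was -0.52, and that of all tested genes was -0.00. In 1 of the 9 (Slc7a1) the NS_PI and NS libraries did not overlap with NS_PI lower, beside 0.553% of all tested genes. NS is also the reference of the stretch effect in vehicle and NS_PI that with inhibitor, so these comparisons share libraries.

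Slc7a1 had the smallest p of all tested genes in this comparison. From the levels given above, all 5 NS_PI libraries (59.8 to 119 CPM) were below all 5 NS libraries (124 to 227 CPM), with a gap of a few CPM. The log2 difference was -0.95 ± 0.17, 1.94-fold lower by the estimate, with an edgeR unadjusted p of 1.6e-05 and an adjusted p of 0.133. The adjusted p was below the threshold with no filter on low counts (0.0111), with DESeq2 (0.00117), with only the 2 groups fitted (0.0277) and without animal 1 (0.0270), and over all alternatives it ranged from 0.00117 to 0.999.

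Slc7a11 was lower in NS_PI than in NS in all 5 animals, with group means of 45.8 ± 14.3 and 91.0 ± 41.3 CPM (SD, n = 5). The groups overlapped because animal 1 had a low level in NS. The log2 difference was -0.93 ± 0.23 (edgeR adjusted p = 0.379), and it passed the threshold with only the 2 groups fitted (adjusted p = 0.0213). Slc7a5 had the largest estimate, -1.03 ± 0.37, but with a wide spread over animals, from -2.78 in animal 2 to 1.01 in animal 1 (edgeR adjusted p = 0.866). The other 6 ranged from -0.54 (Slc1a5) and -0.52 (Slc6a9) over -0.40 (Slc3a2), -0.22 (Slc38a2) and -0.19 (Slc7a6) to -0.05 (Slc38a1), the last of which was 0.22 without animal 4.

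In stretched cells no member passed the test of inhibitor against vehicle. The levels of Slc38a2 and Slc3a2 were close in S_PI and S, while Slc7a1 was lower in S_PI. In this comparison 0% of all tested genes were called by edgeR. At an unadjusted p below 0.05, 1 member (Slc7a1) and 340 genes were counted, and DESeq2 called 0. All 5 S_PI libraries of Slc7a1 (224 to 263 CPM) were below all 5 S libraries (298 to 363 CPM), a separation seen in this direction in 0.0841% of all tested genes. The log2 difference of Slc7a1 was -0.40 ± 0.17 (edgeR adjusted p = 0.999, lower in 5 of 5 animals). Slc38a2 had 1374 ± 329.8 CPM in S_PI and 1385 ± 376 CPM in S, with a log2 difference of 0.00 ± 0.13 (95% CI -0.27 to 0.28). Slc3a2 had 479 ± 173 and 484 ± 227 CPM, with a log2 difference of 0.03 ± 0.21. The other 6 tested members had log2 differences of -0.45 (Slc7a5), -0.05 (Slc7a6), 0.03 (Slc6a9), 0.09 (Slc1a5), 0.23 (Slc7a11) and 0.33 (Slc38a1).

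**Figure D3:**
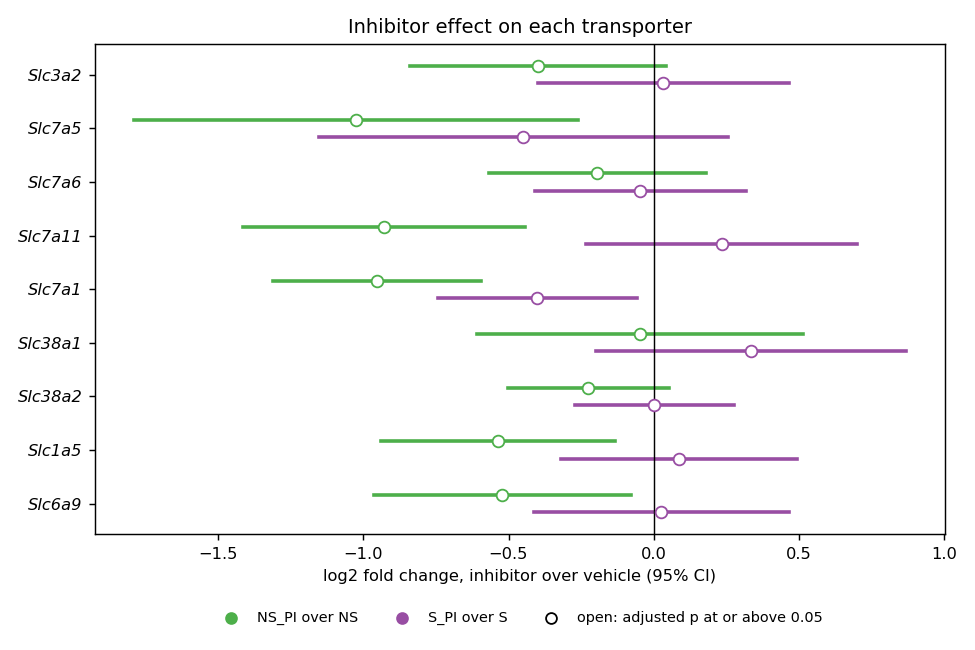
Fitted log2 fold change of inhibitor over vehicle (horizontal axis) with its 95% confidence interval for each tested transporter, in unstretched cells (green, NS_PI over NS) and in stretched cells (purple, S_PI over S), open points having an adjusted p of 0.05 or above. All points are open, the 9 green points lie below 0 (Slc38a1, at -0.05, lies above it without animal 4), and Slc7a1 is at -0.95 and -0.40.

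An average of the inhibitor effect over unstretched and stretched cells was added after seeing the data. It had an adjusted p below 0.05 in 0.024% of all tested genes, which were 2 genes, Slc7a1 and Trib3, a pseudokinase gene induced by ATF4, and both were lower with the inhibitor. The average log2 difference of Slc7a1 was -0.68 ± 0.12 (1.60-fold lower, edgeR adjusted p = 0.0480), lower in 5 of 5 animals. That of Trib3 was -0.86 ± 0.14 (edgeR adjusted p = 0.0425). Both calls were lost without the animal block and without animal 2, 3, 4 or 5, settings in which edgeR called 0 genes. The adjusted p of Slc7a1 was then 0.281, 0.472, 0.421, 0.166 and 0.306. Of the other 8 tested members, none was called, with averages of -0.74 (Slc7a5), -0.35 (Slc7a11), -0.25 (Slc6a9), -0.22 (Slc1a5), -0.18 (Slc3a2), -0.12 (Slc7a6), -0.11 (Slc38a2) and 0.14 (Slc38a1).

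The difference between the stretch effects, taken as the effect with inhibitor minus that without it, was tested as an interaction. No member was called, and 0% of all tested genes were called by edgeR. At an unadjusted p below 0.05, 3 members (Slc7a11, Slc7a1 and Slc1a5) and 345 genes were counted, and DESeq2 called 0. The estimate was above 0 for all 9 tested members, with a median of 0.55 beside 0.00 for all tested genes. It is also the inhibitor difference in stretched cells (median of the 9 0.03) minus that in unstretched cells (median -0.52). The shared sign therefore repeats in part the lower estimates in unstretched cells, which come from the same libraries. Slc7a11 had the largest, 1.16 ± 0.32 (edgeR unadjusted p = 0.00169, adjusted p = 0.984), and the ninth smallest p of all tested genes. Within animals the stretch effect on Slc7a11 was larger with inhibitor in 5 of 5, by 0.60 to 1.57. The other estimates were 0.62 (Slc1a5), 0.58 (Slc7a5), 0.55 (Slc7a1), 0.55 (Slc6a9), 0.43 (Slc3a2), 0.38 (Slc38a1), 0.23 (Slc38a2) and 0.15 (Slc7a6). The members that rose with inhibitor and did not pass in vehicle, among them Slc7a11, are thus not shown to differ between these states.

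**Figure D4:**
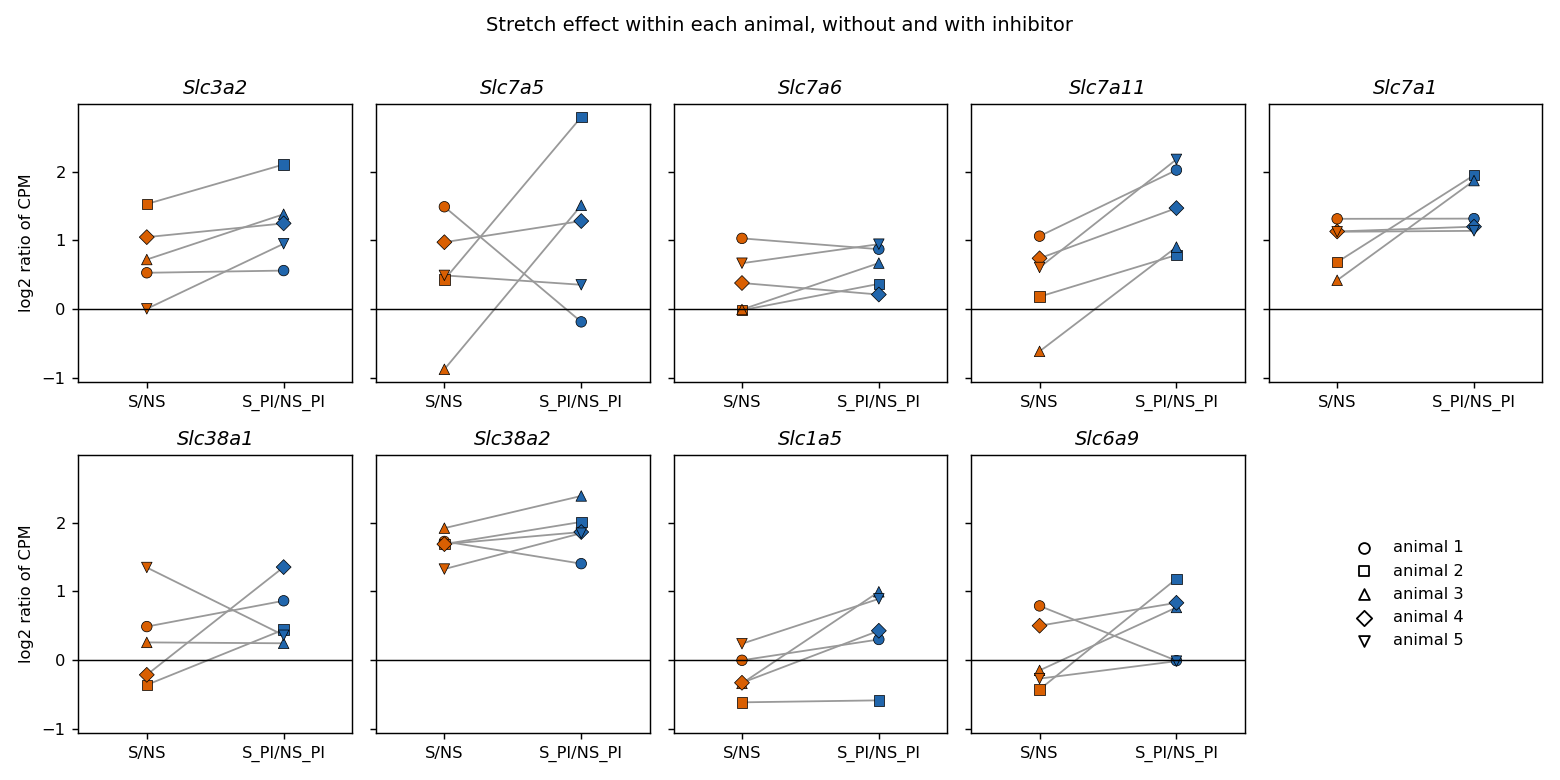
Log2 ratio of the CPM of stretched over unstretched cells within each animal (vertical axis, shared by the panels) without inhibitor (left, orange) and with it (right, blue), with 1 line per animal whose marker shape gives the animal. All 5 lines of Slc7a11 slope upward, from between -0.61 and 1.06 to between 0.79 and 2.18, while those of Slc38a2 stay between 1.32 and 2.39.

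Set in order of their group means, the members fell into different patterns. Slc7a1 ran from NS_PI (88.5 ± 23.6 CPM) over NS (171 ± 43.6) and S_PI (243 ± 18.4) to S (319.9 ± 26.2, SD, n = 5). Only the neighbours NS and S_PI shared a range, through NS animal 3 at 227 CPM. Slc38a2 formed a low pair, NS_PI (363 ± 59.2) and NS (429 ± 84.5), and a high pair, S_PI and S, and the members of each pair overlapped. Slc3a2 and Slc7a6 had the same order of pairs with more overlap. Slc7a11 was lowest in NS_PI (45.8 ± 14.3), with NS (91.0 ± 41.3), S (111 ± 38.7) and S_PI (125 ± 38.2) overlapping one another. Slc7a5 was lowest in NS_PI (13.5 ± 6.65) and highest in S (37.0 ± 13.6), with S_PI (26.9 ± 5.91) and NS (28.7 ± 15.6) between them and neighbours overlapping. Slc1a5, Slc6a9 and Slc38a1 also had their lowest mean in NS_PI, but all 4 of their groups overlapped. Slc38a1 ran from 6.89 ± 2.07 in NS_PI to 10.9 ± 3.93 in S_PI.

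Slc1a4, the neutral exchanger ASCT1, was not tested. It had 9 counts in all 20 libraries, of which NS held 3, S held 5, NS_PI held 0 and S_PI held 1, with at most 2 in a library. The 0 of NS_PI allows up to 3 counts over that group, so a difference between groups was not detectable at this depth.

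The members also differed in how much of their variance lay between animals. Stretch accounted for 89.9% of the variance of log2 CPM of Slc38a2 over the 20 libraries, and animals for 6.99%. For Slc7a1 stretch accounted for 65.0%, the inhibitor for 20.3% and animals for 2.27%. For Slc7a11 animals (34.4%) and stretch (33.1%) had nearly equal shares, and the interaction had 11.0%. For Slc3a2 stretch had 45.6% and animals 34.3%. For Slc6a9 and Slc38a1 animals had the largest share, 48.3% and 41.4%. Slc1a5 had 1.51% for stretch and 47.0% residual. These shares are descriptions of these libraries.

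**Figure D5:**
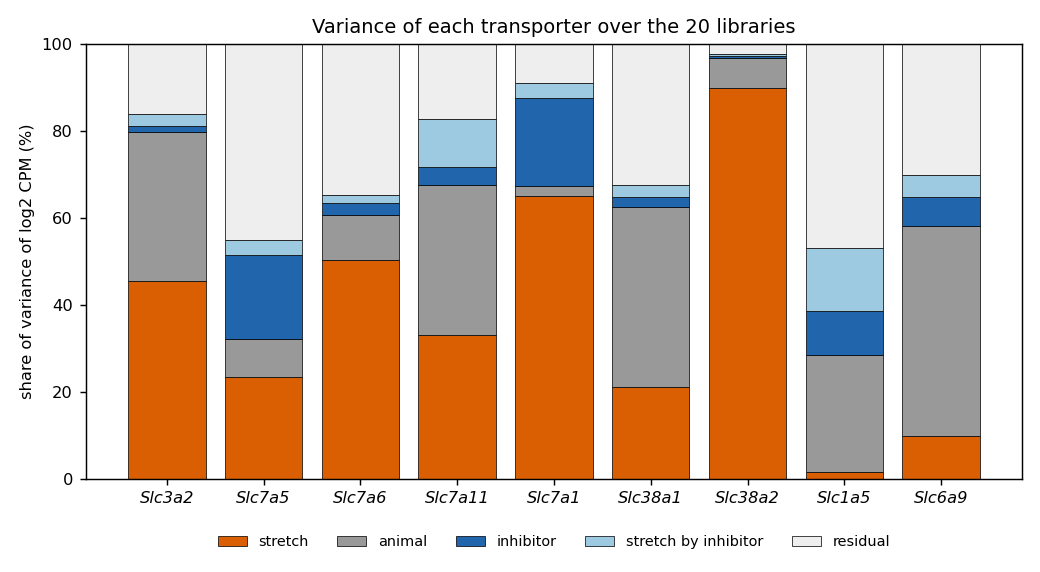
Share of the variance of log2 CPM over the 20 libraries (vertical axis, percent) that falls to stretch, animal, inhibitor, their interaction and the residual, as stacked bars for each tested transporter. Stretch takes 89.9% for Slc38a2 and 65.0% for Slc7a1, animals take 48.3% for Slc6a9, and Slc7a1 has the largest inhibitor share, 20.3%.

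Genes with the most similar pattern were taken as those with the smallest root mean square difference in centred log2 CPM over the 20 libraries, among 6970 genes, and are named for the 3 members with the widest range of group means. For Slc38a2 they were Map3k8 (0.29), Ppp1r10 (0.34) and Mafk (0.36), with a standard deviation of Slc38a2 itself of 0.94. For Slc7a1 they were Cars (0.35), which encodes cysteinyl-tRNA synthetase, Nolc1 (0.39) and Klf6 (0.39), beside its own 0.75. For Slc7a5 they were Cars (0.47), Slc7a1 (0.49) and Etv5 (0.52), beside its own 0.79. All of these points share libraries and depth, and the likeness is a description.

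Other amino acid transporters mostly had too few counts. Of 42 listed, 40 were in the table and 11 were tested. Among all tested genes, 24.9% were called under stretch without inhibitor and 30.5% with it. Without inhibitor 4 rose and 1 fell, with a median log2 change of 0.56 beside -0.01 for all tested genes. The neutral carrier Slc7a8 (LAT2), another partner of Slc3a2, rose by 0.65 ± 0.18 (edgeR adjusted p = 0.0116), and the taurine carrier Slc6a6 rose by 0.59 ± 0.17 (edgeR adjusted p = 0.0153). Slc7a7 (y+LAT1), another light chain, fell by 0.59 ± 0.19 (edgeR adjusted p = 0.0256). The other 2 that rose, Slc16a10 (2.01 ± 0.45) and Slc38a7 (0.96 ± 0.29), had low levels and are named after their values were seen. With inhibitor 3 rose and 2 fell, with a median of -0.01 beside -0.02. Among them, the cationic carrier Slc7a2 (CAT-2) rose by 1.13 ± 0.28 (edgeR adjusted p = 0.00512) and Slc7a7 fell by 0.53 ± 0.19 (edgeR adjusted p = 0.0360). Slc7a3 (0.97 ± 0.30) and Slc16a10 (1.40 ± 0.44) also rose and Slc7a4 (-1.78 ± 0.41) also fell, all 3 named after their values were seen.

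Of 24 listed genes of the ATF4 pathway other than transporters, 21 were tested. The share of all tested genes that rose under stretch was 12.5% without inhibitor and 15.2% with it. Without inhibitor 8 rose and 1 fell, with a median log2 change of 0.46 beside -0.01 for all tested genes, and with inhibitor 13 rose and 0 fell, with a median of 0.74 beside -0.02. Atf4 itself rose by 0.97 ± 0.15 without and by 1.26 ± 0.15 with inhibitor (edgeR adjusted p = 0.000108 and 4.38e-06). Ddit3, encoding the stress factor CHOP, rose by 0.84 ± 0.14 and 0.94 ± 0.14 (edgeR adjusted p = 0.000337 and 7.79e-05). Ppp1r15a, a phosphatase subunit that acts on eIF2α, rose by 1.98 ± 0.25 and 2.50 ± 0.26 (edgeR adjusted p = 1.91e-05 and 1.05e-06). Herpud1 rose by 1.30 ± 0.19 without inhibitor (edgeR adjusted p = 6.37e-05), Atf3 by 1.34 ± 0.18 with it (edgeR adjusted p = 2.23e-05), and Vldlr, a lipoprotein receptor, fell by 0.88 ± 0.25 without it (edgeR adjusted p = 0.0132). At most 4 called genes were named by size of change in each comparison, so Herpud1 and Atf3 may also have passed in the other. Trib3 had 0.46 ± 0.20 without inhibitor (edgeR adjusted p = 0.0895) and rose by 0.69 ± 0.21 with it (0.0151). Chac1, which degrades glutathione, had 0.65 ± 0.29 without inhibitor (edgeR adjusted p = 0.101) and rose by 1.68 ± 0.29 with it (0.000257). Asns, asparagine synthetase, had -0.16 ± 0.23 and 0.53 ± 0.24 and passed in neither (edgeR adjusted p = 0.645 and 0.0950). With the inhibitor in unstretched cells the median of the list was -0.45 beside -0.00. Trib3 was at -0.98 ± 0.20 and Asns at -0.83 ± 0.24, neither past the threshold (edgeR adjusted p = 0.275 and 0.574). Chac1 was at -0.56 ± 0.30, Atf4 at -0.27 ± 0.15 and Ddit3 at -0.09 ± 0.15 (edgeR adjusted p = 0.909, 0.913 and 0.971). With the inhibitor in stretched cells the median was -0.11 beside -0.01. Trib3 was at -0.75 ± 0.20, Asns at -0.13 ± 0.24, Ddit3 at 0.01 ± 0.14, Atf4 at 0.02 ± 0.14 and Chac1 at 0.47 ± 0.27 (edgeR adjusted p = 0.999 for all). Interaction estimates were 1.03 ± 0.41 (Chac1), 0.70 ± 0.33 (Asns), 0.29 ± 0.21 (Atf4), 0.23 ± 0.29 (Trib3) and 0.09 ± 0.20 (Ddit3), none past the threshold. Average inhibitor effects besides Trib3 were -0.48 ± 0.17 (Asns), -0.12 ± 0.10 (Atf4), -0.05 ± 0.20 (Chac1) and -0.04 ± 0.10 (Ddit3), none past it.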

How the data were processed

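Messenger RNA was sequenced from its 3′ end (QuantSeq, forward) in 20 libraries of 5 animals. The authors deposited raw counts per gene symbol, made with STAR and HTSeq on rn6 per the submitters' processing notes, with versions, annotation and strand setting not given in the sources used here. A DESeq2 result table of the authors, by its name adjusted for the rat, was deposited too. Per the file headers it holds log2 fold changes and their standard errors, p-values raw and adjusted, Wald statistics (a score) and, as a signal, the mean normalized count. HTSeq summary entries, with 16.2 to 24.5% of records outside genes and 35.5 to 57.7% aligned to several places, were left out of totals and tests.

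Genes were filtered with filterByExpr (minimum count 10) and scaled by TMM. They were tested with the edgeR 4.0.16 quasi-likelihood F test in 1 fit of group plus animal to all 20 libraries (12 residual degrees of freedom), with Benjamini-Hochberg adjustment over 8320 genes and calls at an adjusted p below 0.05. Differences between animals in the stretch effect had no term of their own and stayed in the residual. The animal block follows the extract protocol, by which a library's monolayers come from 1 animal, and the name of the deposited table. After group means were removed, libraries of 1 animal had a median correlation of 0.53 (lowest 0.33) and those of different animals -0.18, and 20 of 20 libraries were closest to their own animal.

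Levels are CPM with SD over 5 animals, and differences are fitted log2 changes with SE. Log2 CPM for likeness and for the correlations between libraries used a prior count of 2. Variance shares and differences within animals used log2 CPM without a prior count. The alternatives were RLE and upper-quartile scaling, library size alone, no filter, DESeq2 1.42.0, no block, only the groups compared and leaving out each animal. The members, lists, motifs and tests were chosen with earlier results of these data known. The rule was to name every tested member in each comparison and, of the other lists, at most 4 called genes per list and comparison with the largest change and a mean of at least 10 CPM, and always Atf4, Ddit3, Trib3, Asns and Chac1. Genes of the lists named outside the rule, after their values were seen, are marked where they appear. The lists were other amino acid transporters, the ATF4 pathway, NRF2 and glutathione genes, amino acid sensing by mTORC1 and markers of alveolar type I, alveolar type II, macrophage, fibroblast, endothelial and airway cells. Scripts were tested on simulated data. The labels name no sequencing batch. R 4.3.3, limma 3.58.1, Python 3.11.15 and matplotlib 3.10.9 were used.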

Additional observations from a re-analysis of the deposited data

Results flagged for a closer look

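Of 36 sets of 5 libraries (9 tested transporters in 4 groups), 1 had a library far from the others. Slc38a1 in S_PI was 17.7 CPM in animal 1, and the next highest of the 5 libraries was 10.6 CPM. Chance flags about 1 in 20 such sets. Slc38a1 was not called in any comparison. Animal 1 also had the highest Slc38a1 level of its group in NS (9.64 CPM), S (13.5 CPM) and NS_PI (9.72 CPM).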

How the results depend on the processing

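Of 54 member results under 630 alternatives in all, 578 kept their direction and side of the threshold, 24 lost and 6 gained a call, and 22 changed sign. Of 11 calls, 6 held in every alternative: Slc38a2 and Slc7a1 under stretch in both inhibitor states, and Slc7a11 and Slc3a2 with inhibitor. Slc7a5 and Slc6a9 with inhibitor were each lost in 7 of 12. Members called under stretch with inhibitor fell to 4 with library size alone and ranged from 4 to 7 without 1 animal (4 without animal 3).

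Without the animal block, the paired structure unused, genes called under stretch fell from 2075 to 818 in vehicle and from 2534 to 1229 with inhibitor. The average inhibitor effect then had 0 genes and 0 members, and Slc3a2 under inhibitor with stretch was -0.0146, Slc38a2 -0.0117 and Slc6a9 under stretch in vehicle -0.0105. With only the groups compared, stretch in vehicle had 1048 genes, and the inhibitor without stretch had 27 genes and 2 members. For the inhibitor without stretch, no filter gave 4 genes and DESeq2 5, each with 1 member, and leaving out an animal gave 0 to 3 genes and 0 to 1 members (3 and 1 without animal 1). The average inhibitor effect had 4 genes with no filter, 7 with DESeq2, and 0 to 4 genes and 0 to 1 members without 1 animal.

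The changes of sign concerned log2 values near 0. Slc6a9 under stretch in vehicle was -0.0195 with the upper quartile, -0.0674 with library size alone, and -0.115 to 0.182 without 1 animal. Slc38a2 under inhibitor with stretch was -0.0118 with RLE, -0.00118 with no filter, -0.0122 with DESeq2, -0.00203 with only the groups compared, and -0.0429 to 0.0582 without 1 animal. Without 1 animal, the same comparison ran from -0.129 to 0.0498 for Slc7a6, -0.0582 to 0.140 for Slc3a2, -0.0159 to 0.190 for Slc1a5 and -0.202 to 0.146 for Slc6a9, and the inhibitor without stretch from -0.221 to 0.222 for Slc38a1. The cause of these changes was not tested. Depth limits Slc1a4 and Slc38a1 most, and other animals could give other values.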

Other observations

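Of 13 NRF2 and glutathione genes, all tested, 5 rose and 0 fell with stretch without inhibitor, and 5 rose and 0 fell with it. The share of all tested genes that rose was 12.5% without inhibitor and 15.2% with it. The medians of the list were as follows. The median log2 change of the 13 was 0.29 and 0.33, beside -0.01 and -0.02 for all tested genes. Gclc, a subunit of the enzyme that limits glutathione synthesis, rose by 0.72 ± 0.19 without inhibitor (edgeR adjusted p = 0.00829) and by 1.21 ± 0.19 with it (edgeR adjusted p = 9.44e-05). Hmox1, heme oxygenase, rose by 0.98 ± 0.25 and 0.99 ± 0.25 (edgeR adjusted p = 0.00723 and 0.00523), and Osgin1 by 0.77 ± 0.20 and 0.75 ± 0.21 (edgeR adjusted p = 0.00955 and 0.0106). Nqo1, a quinone reductase, rose by 0.85 ± 0.22 without inhibitor (edgeR adjusted p = 0.00814), and Txnrd1, thioredoxin reductase, rose by 0.84 ± 0.19 with it (edgeR adjusted p = 0.00211). Since at most 4 called genes were named in each of these comparisons, Nqo1 and Txnrd1 may also have passed in the other. Slc7a11, whose product supplies cysteine for glutathione, stood at 0.33 and 1.49 in the same comparisons.

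Of 21 listed genes by which mTORC1 senses amino acids, 18 were tested. Among all tested genes, 24.9% were called under stretch without inhibitor and 30.5% with it. Without inhibitor 0 rose and 2 fell, namely Rraga, a GTPase of the sensing complex (-1.14 ± 0.24, edgeR adjusted p = 0.00201), and Sesn1, a leucine-binding inhibitor of the pathway (-0.81 ± 0.21, edgeR adjusted p = 0.00746). With inhibitor 2 rose and 3 fell. Fnip1 rose by 0.85 ± 0.19 (edgeR adjusted p = 0.00181), and Nprl2 (-0.75 ± 0.21), Mlst8 (-0.71 ± 0.17) and Sesn1 (-0.62 ± 0.21) fell (edgeR adjusted p = 0.0101, 0.00323 and 0.0254). The list's median log2 change was -0.04 without and -0.22 with inhibitor, beside -0.01 and -0.02 for all tested genes.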
